A study of Arabidopsis thaliana with 2 samples.

Results

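A set of 5 stress-related Arabidopsis genes that the authors list as lower in plants silenced for the transcription factor gene WRKY75 are described here: the glutathione transferase genes GSTF2 (AT4G02520) and GSTF7 (AT1G02920), the peroxidase gene Prx37 (AT4G08770), the alpha-dioxygenase gene DOX1 (AT3G01420) and BAP1 (AT3G61190). They were chosen by locus name within the authors' table of lower transcripts, with 1 transcript model each, and are 5 of 931 loci listed as lower and of 2159 loci listed in either direction. That all 5 are lower is therefore part of how they were chosen and is not a result. The samples are the third and the fourth leaves of 28-day-old *Arabidopsis thaliana* in the Col-0 background, in which polyadenylated RNA was sequenced. There was 1 library from WRKY75RNAi plants, in which an RNA interference transgene targets WRKY75, and 1 library from wild-type Col-0. The number of plants per library, the promoter of the transgene and the number of transgenic lines were not stated in what was available.

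Plants make reactive oxygen species during defence and senescence, and these genes act at different points of that chemistry. Glutathione transferases join the tripeptide glutathione to reactive or toxic compounds, and some also carry small molecules without converting them. Class III peroxidases are secreted haem enzymes that use hydrogen peroxide to cross-link or cleave cell wall components. Alpha-dioxygenases add oxygen to fatty acids and so start a branch of the oxylipins, a family of lipid signals. BAP1 is a membrane-binding C2 domain protein that works with the copine BON1 and is known to restrain programmed cell death. WRKY factors bind the W-box, a promoter element with the core TTGAC, and the title of the study links WRKY75 with salicylic acid, reactive oxygen and the ageing of leaves.

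The library totals behind the deposited values were 38042482 reads for WRKY75RNAi and 41328980 reads for Col-0. WRKY75 (AT5G13080) itself had 8.87 RPKM from 476 reads in WRKY75RNAi, against 29.2 RPKM from 1699 reads in Col-0 (log2 ratio -1.72, interval -1.87 to -1.57), the direction the label calls for. RPKM is reads per kilobase of gene length, scaled to the size of the library. All intervals are exact (Clopper-Pearson) 95% intervals that cover counting error only. With 1 library per genotype there is no spread between plants, no test of genotype and no p-value, and every ratio compares these libraries. The tables hold only transcripts past the authors' thresholds, which include a 2-fold difference, so a gene absent from them is called not listed, which does not show that it was equal in both libraries. No mesophyll marker (0 of 4), root marker (0 of 5), flower marker (0 of 5) or seed marker (0 of 4) is listed, so the labelled tissue could not be checked from levels. In whole leaves, fewer cells of a type and less RNA per cell cannot be told apart.

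Several of the genes have a close copy elsewhere in the genome, and their sequences show how much of a read could be assigned to either. The first 90 coding bases of 3 such pairs are given from the RefSeq annotation of TAIR10.1, whose nuclear chromosomes are those of the authors' build TAIR10, with capitals for bases that differ within a pair. GSTF2 and GSTF3 differ at 3 of these bases:
GSTF2: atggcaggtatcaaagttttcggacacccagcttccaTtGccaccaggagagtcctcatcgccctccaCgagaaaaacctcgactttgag
GSTF3: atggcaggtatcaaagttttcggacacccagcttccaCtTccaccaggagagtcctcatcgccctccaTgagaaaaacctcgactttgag
GSTF7 and its neighbour GSTF6 differ at 1 of them:
GSTF7: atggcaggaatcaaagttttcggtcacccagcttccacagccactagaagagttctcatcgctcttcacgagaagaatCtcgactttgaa
GSTF6: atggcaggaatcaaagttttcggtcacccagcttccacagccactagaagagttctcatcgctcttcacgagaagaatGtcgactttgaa
Prx37 and its neighbour AT4G08780 differ at 3 of them:
Prx37: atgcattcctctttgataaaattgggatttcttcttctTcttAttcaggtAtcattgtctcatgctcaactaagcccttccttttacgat
AT4G08780: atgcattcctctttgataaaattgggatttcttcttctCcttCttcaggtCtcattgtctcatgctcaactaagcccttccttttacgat

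Over the whole coding sequence GSTF2 and GSTF3 were identical at 94.5% of 639 aligned bases, GSTF7 and GSTF6 at 94.7% of 627, and Prx37 and AT4G08780 at 93.8% of 1041. The glutathione transferases GSTF2 and GSTF7 were further apart, at 77.8% identity over 630 bases. DOX1 and the other alpha-dioxygenase gene AT1G73680 were at 67.5%, and BAP1 and BAP2 at 69.8%. Read length was not stated in what was available, so exact sharing was counted for several window lengths. Of 36-base windows of the transcript, 6.82% recur in GSTF3 for GSTF2, 13.9% in GSTF6 for GSTF7 and 12.1% in AT4G08780 for Prx37, and these shares were 0, 1.53% and 0.154% for windows of 100 bases. No window of 36 bases of DOX1 or BAP1 recurs in another annotated transcript. GSTF2 has a further limit, because TOC159, a chloroplast protein import receptor gene, lies on the opposite strand across 1442 bases of it in RefSeq. The deposited length of GSTF2 was 1208 bases, against 1471 spliced bases in RefSeq, so the authors' models may overlap differently. Of the 36-base windows of GSTF2, 53.1% are also in TOC159 transcripts, and since no strand setting is given, reads of GSTF2 and TOC159 cannot be told apart there. TOC159 is not listed.

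GSTF2, a phi-class transferase that is also known to bind the defence compound camalexin and indole compounds, was the most abundant of all 931 lower loci by mean RPKM. It had 1042 RPKM from 47871 reads in WRKY75RNAi, against 2252 RPKM from 112414 reads in Col-0. Its level in WRKY75RNAi was 46.3% of that in Col-0 (log2 ratio -1.11, interval -1.13 to -1.10). GSTF2 alone took 0.126% of the WRKY75RNAi library (interval 0.125% to 0.127%) and 0.272% of the Col-0 library (interval 0.270% to 0.274%). The gene lies at chr4:1110343-1112033 on the minus strand in TAIR10.1 and has 3 exons.

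GSTF7, a phi-class transferase known as a salicylic acid-responsive gene, ranked 3 by mean RPKM. It had 450.4 RPKM from 19087 reads in WRKY75RNAi and 937 RPKM from 43135 reads in Col-0. This is 48.1% of the Col-0 level (log2 ratio -1.06, interval -1.08 to -1.03), the ratio closest to the 2-fold threshold of the table among the 5 genes. GSTF2 and GSTF7 together held 10.7% of the reads of all lower loci in WRKY75RNAi (interval 10.7% to 10.8%) and 8.83% in Col-0 (interval 8.79% to 8.87%). GSTF7 lies at chr1:658578-659980 on the minus strand, also with 3 exons.

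BAP1, the partner of BON1, had 83.1 RPKM from 2914 reads in WRKY75RNAi, against 179 RPKM from 6818 reads in Col-0. Its level in WRKY75RNAi was 46.4% of that in Col-0 (log2 ratio -1.11, interval -1.17 to -1.04). It ranked 30 in mean RPKM among the lower loci, and its model of 1 exon lies at chr3:22650159-22651636 on the minus strand. Its paralog BAP2 and the copine genes BON1, BON2 and BON3 were not listed. The 1 of 5 genes of this group that was listed (20%, beside 3.17% lower over all models tested) is BAP1 itself, which was chosen for being lower.

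Prx37, a secreted class III peroxidase, was far less abundant. It had 3.34 RPKM from 279 reads in WRKY75RNAi and 15.8 RPKM from 1435 reads in Col-0, which puts WRKY75RNAi at 21.1% of Col-0 (log2 ratio -2.24, interval -2.43 to -2.06). It lies at chr4:5598037-5600398 on the minus strand with 4 exons. DOX1, the fatty acid alpha-dioxygenase, was the rarest of the 5 and had the ratio furthest from 0 without a pseudocount. It had 0.218 RPKM from 28 reads in WRKY75RNAi, against 2.40 RPKM from 335 reads in Col-0, or 9.08% of the Col-0 level (log2 ratio -3.46, interval -4.07 to -2.90). With 1 RPKM added to each value the log2 ratio of DOX1 was -1.48, nearer 0 than -1.95 for Prx37, and with 5 RPKM added it was -0.50, the nearest to 0 of the 5. It lies at chr3:159450-162905 on the minus strand with 10 exons.

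**Figure D1:**
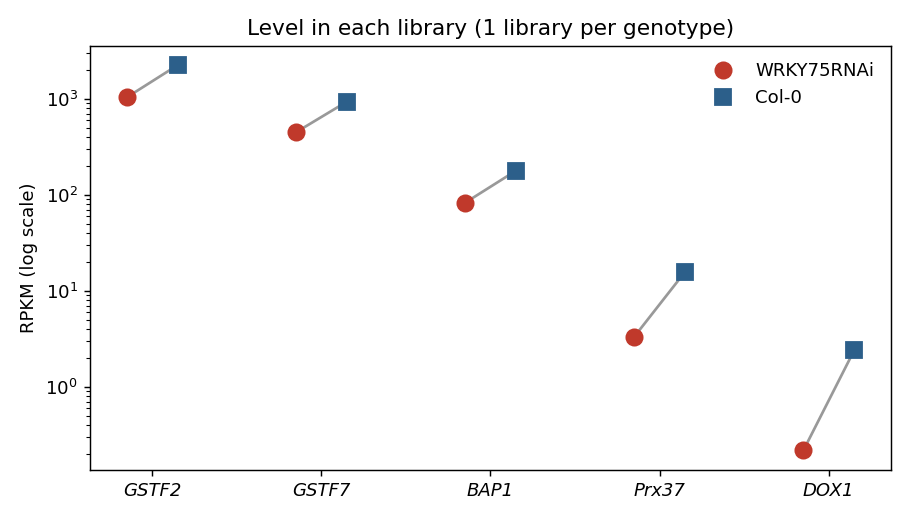
RPKM on a log scale for each of the 5 genes in the WRKY75RNAi library (circles) and the Col-0 library (squares), 1 library each, with a line joining the values of a gene. The genes span 0.218 to 1042 RPKM in WRKY75RNAi and 2.40 to 2252 RPKM in Col-0, and the lines are steepest for Prx37 and DOX1.

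The order of levels was GSTF2, GSTF7, BAP1, Prx37 and DOX1 in both libraries. GSTF2 stood 2.31-fold above GSTF7 in WRKY75RNAi and 2.40-fold above it in Col-0, and 12.5-fold and 12.6-fold above BAP1. The distance from Prx37 to DOX1 differed between the libraries, with Prx37 at 15.3 times the DOX1 level in WRKY75RNAi and 6.57 times in Col-0. The deposited lengths are closer to the genomic span than to the spliced transcript for the genes with more introns: 1.57 times the spliced RefSeq length for Prx37 and 1.44 times for DOX1, but 0.821 times for GSTF2, 0.918 times for GSTF7 and 0.779 times for BAP1. With the spliced RefSeq length in place of the deposited one, the RPKM of GSTF2 was 855 in WRKY75RNAi and 1849 in Col-0, that of GSTF7 414 in WRKY75RNAi and 860.4 in Col-0, and that of BAP1 64.7 in WRKY75RNAi and 139 in Col-0. On the same scale Prx37 had 5.24 in WRKY75RNAi and 24.8 in Col-0, and DOX1 0.315 in WRKY75RNAi and 3.47 in Col-0. The order is the same on this scale, and the ratios between libraries do not depend on the length.

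The 5 ratios formed a group of 3 similar values and 2 larger ones. The log2 ratio of GSTF2 less that of BAP1 was -0.01 (interval -0.07 to 0.06), and that of GSTF7 less that of BAP1 was 0.05 (interval -0.02 to 0.12), so these pairs could not be separated by counting error. GSTF2 less GSTF7 was -0.06 (interval -0.08 to -0.03), an interval that leaves out 0 at this depth but covers a small difference. That interval does not cover variation between plants or reads shared with TOC159, GSTF3 or GSTF6. Prx37 less BAP1 was -1.14 (interval -1.34 to -0.94), and DOX1 less BAP1 was -2.35 (interval -2.97 to -1.79). Prx37 and DOX1 were also apart from each other, by 1.22 (interval 0.62 to 1.86). These are 6 of 10 pairs compared. In the other 4, GSTF2 or GSTF7 less Prx37 was 1.13 and 1.19, and GSTF2 or GSTF7 less DOX1 was 2.35 and 2.40, with no interval reaching 0.

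**Figure D2:**
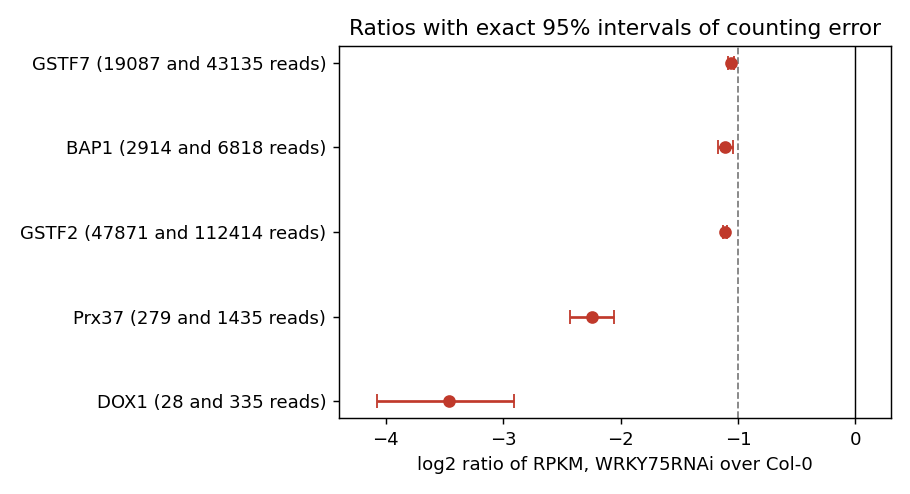
Log2 ratio of RPKM, WRKY75RNAi over Col-0, with exact 95% intervals of counting error, for the 5 genes ordered from the value nearest 0 at the top. Reads in WRKY75RNAi and then Col-0 stand beside each name, the solid line marks 0 and the dashed line marks the 2-fold threshold of the table at -1. GSTF7, BAP1 and GSTF2 lie just beyond the dashed line at -1.06 to -1.11, while Prx37 and DOX1 lie at -2.24 and -3.46.

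Among transcript models tested by the authors, the share listed as lower was 3.17% (998 of 31475) and the share listed as higher was 4.32% (1360 of 31475). The number tested was recovered from the deposited p-values and false discovery rates. Both shares count transcript models, whereas the shares of gene lists set beside them count genes, whether or not each was tested. The first share is the background of the table from which the genes were taken. Within that table the 5 genes lay far apart. Of the 853 lower loci with reads in both libraries, whose median log2 ratio was -1.48, DOX1 ranked 23 and Prx37 ranked 142 from the largest ratio, whereas GSTF2, BAP1 and GSTF7 ranked 735, 740 and 784. Only 119 of the 853 loci (14.0%) had a log2 ratio no further from 0 than that of GSTF2. For the 63 lower loci at or above 100 RPKM in Col-0, among them GSTF2, GSTF7 and BAP1, the log2 ratios ran from -3.23 to -1.02 with a median of -1.33.

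**Figure D3:**
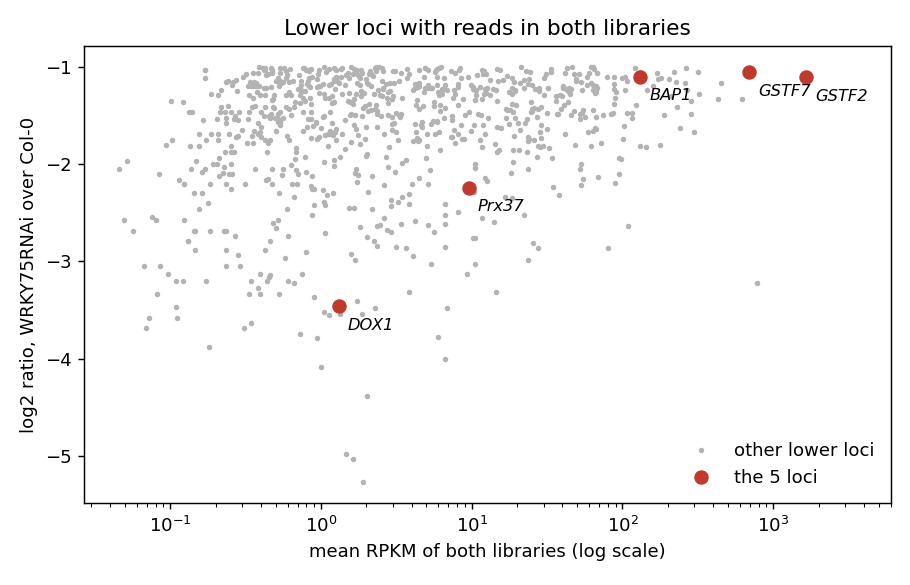
Mean RPKM of both libraries (log scale) against the log2 ratio, WRKY75RNAi over Col-0, for the 853 lower loci with reads in both libraries (grey), with the 5 genes in red. GSTF2, GSTF7 and BAP1 lie at the abundant end near the threshold at -1, and Prx37 and DOX1 lie lower and further left.

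The wider glutathione transferase family was listed in both directions. Words in the gene descriptions found 58 such genes, 8 (13.8%) lower and 4 (6.90%) higher, beside 3.17% and 4.32% over all models tested. The 8 include GSTF2 and GSTF7, which were chosen for being lower. Outside the phi and tau classes, AT5G44990 was lower (log2 ratio -1.93) and AT1G19550 was higher (1.24). Of 13 phi-class genes, 3 (23.1%) were lower and 1 (7.69%) was higher, beside 3.17% lower and 4.32% higher over all models tested, but GSTF2 and GSTF7, which were chosen for being lower, are among the 3. The median log2 ratio of the 4 listed phi genes was -1.08. It falls midway between the values of GSTF2 and GSTF7, so it restates the chosen genes and does not describe the class. Of 28 tau-class genes, 4 (14.3%) were lower and 2 (7.14%) higher, beside the same shares. The median log2 ratio of these listed tau genes was -1.36, and that of all 2003 listed loci with reads in both libraries was 1.10. The 2-fold threshold leaves out ratios near 0, so the sign of each median only reflects which direction holds more listed genes. GSTF3, the copy of GSTF2, was the other lower phi gene, with a log2 ratio of -1.48 (interval -1.90 to -1.07). It had 1.66 RPKM from 67 reads in WRKY75RNAi and 4.64 RPKM from 203 reads in Col-0. GSTF2 had 47871 reads in WRKY75RNAi and 112414 in Col-0, and 6.82% of its 36-base windows recur in GSTF3. Some or all reads of GSTF3 may therefore come from GSTF2, which was not tested. GSTF6, the copy of GSTF7, was not listed. The higher phi gene, GSTF12, which is known for anthocyanin transport, rested on 15 reads in WRKY75RNAi and 4 in Col-0 (2.03, interval 0.38 to 4.08).

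In the tau class, GSTU10 was at 12.2 RPKM in WRKY75RNAi and 42.9 RPKM in Col-0 (log2 ratio -1.82, interval -1.96 to -1.68). GSTU11 had a ratio of -1.60 (interval -1.81 to -1.40), GSTU9 of -1.57 (interval -1.90 to -1.25) and GSTU12 of -1.16 on 19 and 46 reads (interval -2.01 to -0.36). The higher tau genes were GSTU17, named ERD9 for its early response to dehydration, and GSTU16. GSTU17 had 346.5 RPKM from 16833 reads in WRKY75RNAi and 104 RPKM from 5490 reads in Col-0 (1.74, interval 1.69 to 1.78). GSTU16 had 9.77 RPKM in WRKY75RNAi and 4.80 RPKM in Col-0 (1.02, interval 0.83 to 1.22). Sequences of the tau genes were not compared, so reads shared among neighbours such as GSTU11 and GSTU12 were not tested.

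Among 15 genes of glutathione synthesis, reduction and peroxidases that use it, 0 were lower and 1 (6.67%) was higher, close to the 3.17% lower and 4.32% higher over all models tested. This was DHAR1 (AT1G19570), which spends glutathione to regenerate ascorbate, with 911 RPKM from 42477 reads in WRKY75RNAi and 367.5 RPKM from 18622 reads in Col-0 (log2 ratio 1.31, interval 1.28 to 1.33). Its level in WRKY75RNAi was 2.48-fold that in Col-0. DHAR1 was opposite in direction to GSTF2 and GSTF7 and close to GSTF7 in mean RPKM. Its sequence was not compared with its relatives, so shared reads were not tested.

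The peroxidase superfamily, found by words in the gene descriptions, held 73 genes, of which 9 (12.3%) were lower and 0 higher, beside 3.17% lower and 4.32% higher over all models tested. The median log2 ratio of the 9 was -2.24, which is the value of Prx37 itself and so restates a chosen gene. DOX1 carries the same description, and both it and Prx37, which were chosen for being lower, are counted there. The list of 19 class III peroxidases held 3 lower genes (15.8%), Prx37, PER4 and AT4G08780, and 0 higher. AT4G08780, the copy next to Prx37, had 14 reads in WRKY75RNAi and 136 in Col-0 (-3.16, interval -4.07 to -2.36). Reads of the more abundant Prx37 may be counted in AT4G08780 through shared windows, which was not tested. PER4 (AT1G14540) had 74 and 340 reads (-2.08, interval -2.46 to -1.71). The most abundant of the 9 was AT4G37520, at 26.7 RPKM in WRKY75RNAi and 63.0 RPKM in Col-0 (-1.24, interval -1.32 to -1.16). AT5G19880, at -2.98 on 30 and 258 reads, stood between Prx37 and DOX1. The remaining 3, AT4G11290, AT4G25980 and AT4G30170, had ratios of -1.03, -1.20 and -3.34, the last on 1 read in WRKY75RNAi and 11 in Col-0.

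**Figure D4:**
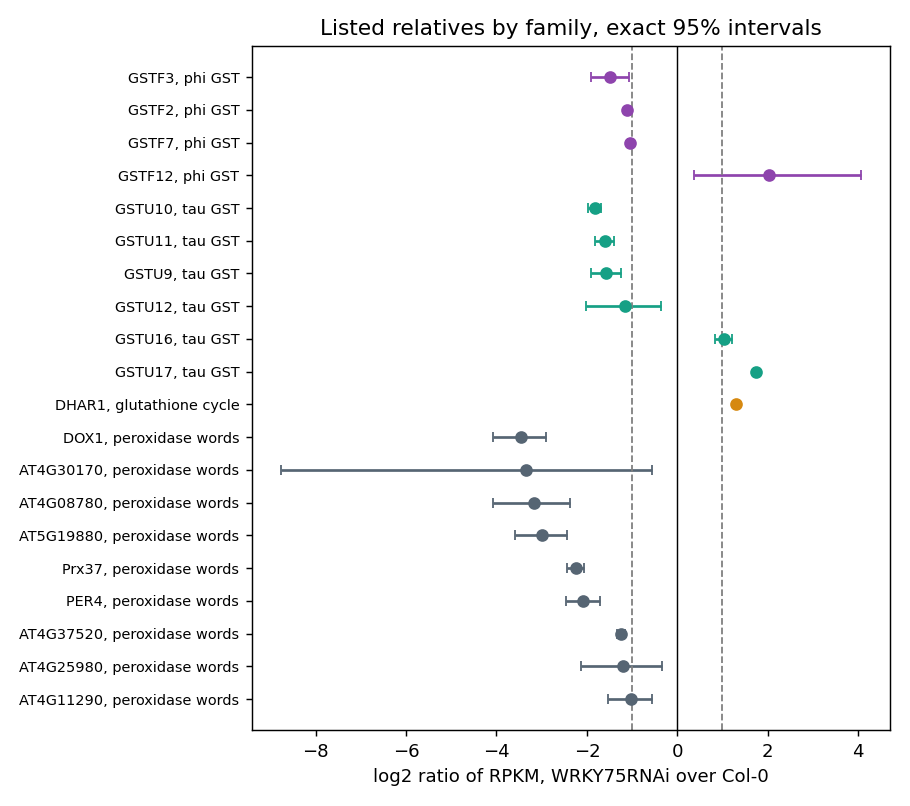
Log2 ratio of RPKM, WRKY75RNAi over Col-0, with exact 95% intervals of counting error, for the listed phi and tau glutathione transferase (GST) genes, the glutathione cycle gene DHAR1 and the 9 genes found by peroxidase words. Dashed lines mark a 2-fold difference. All 9 peroxidase points lie left of 0, while GSTF12, GSTU16, GSTU17 and DHAR1 lie right of it.

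Other genes of reactive oxygen were listed at shares near those over all models tested, 3.17% lower and 4.32% higher. Of 18 genes of catalases, ascorbate peroxidases and superoxide dismutases, 0 were lower and 1 (5.56%) was higher, APX2, with 10 reads in WRKY75RNAi and 0 in Col-0, for which the exact interval of the log2 ratio begins at 1.28. Of 10 NADPH oxidase (RBOH) genes, 0 were listed in either direction. In a separate list of 4 genes of alpha-dioxygenases and 9-lipoxygenases, DOX1 was the only one listed (25%, beside 3.17% lower over all models tested). DOX1 was chosen for being lower, so this share is not a result.

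All 5 genes stood under response to stress in the authors' deposited table of ontology terms, where this term covered 114 of the 857 lower genes entered and 1853 of the 27594 genes of the background (adjusted p 3.49e-10). In the authors' deposited table, glutathione transferase activity covered 7 lower genes and 48 of the background (adjusted p 0.0146), and these 7 are GSTF2, GSTF3, GSTF7, GSTU9, GSTU10, GSTU11 and GSTU12. The authors' deposited table placed both DOX1 and BAP1 under response to salicylic acid stimulus (15 and 135 genes, adjusted p 0.000669). DOX1 was also under cell death (21 and 209 genes, adjusted p 0.000111) and BAP1 under negative regulation of defense response (4 and 18 genes, adjusted p 0.031) in the authors' deposited table. Prx37 stood under heme binding in the authors' deposited table (20 and 290 genes, adjusted p 0.0165). The terms were drawn from the same list of lower genes as the 5 genes.

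In the genome, GSTF7 begins a row of phi transferase genes, with GSTF6 at a distance of 1107 bases, then GSTF5 and GSTF4, all on its strand and none listed. Prx37 and AT4G08780 lie 3706 bases apart on opposite strands, and both were lower. Over the 3 protein-coding genes on each side of the 5 genes, 30 in all, 2 were lower, 2 higher and 26 not listed. The shares over all models tested were 3.17% lower and 4.32% higher, and counts this small were not read as a difference from them. The lower ones were AT4G08780, which may hold reads of its copy Prx37, and PnsL3. PnsL3 is a nuclear gene near DOX1 that encodes a PsbQ-like chloroplast protein. The higher ones were RALF1, which encodes a signal peptide and lies near GSTF7, and AT3G01410 near DOX1. These 4 were named after their values were seen.

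The 250 bases before the annotated start were searched on both strands for the W-box core TTGAC and for TGACG, the core of elements bound by TGA factors of salicylic acid signalling. Among the 5 genes, TTGAC was found in GSTF7 alone, which held it 3 times. Of 27443 promoters of this length, 44.9% hold at least 1 TTGAC and 3.38% hold 3 or more, and among the 850 lower loci with such a window 58.7% hold at least 1. The window of GSTF7, at chr1:659981-660230 in TAIR10.1 on the minus strand, is shown because it is the one that holds the motif, in capitals, 5′ to 3′ towards the gene:
GSTF7 promoter: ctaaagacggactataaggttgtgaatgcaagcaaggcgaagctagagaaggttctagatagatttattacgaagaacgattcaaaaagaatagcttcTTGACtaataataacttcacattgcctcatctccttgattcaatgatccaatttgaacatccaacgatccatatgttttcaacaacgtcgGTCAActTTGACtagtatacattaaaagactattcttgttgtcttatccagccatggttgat
Counted from the start, the matches lie at -152 to -148, -62 to -58 and -55 to -51, and the middle one is on the opposite strand, so it is printed here as its reverse complement.

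The TGA core was found in none of these 5 windows and is in 18.6% of all promoters of this length. In 1000 bases, the W-box core occurred 4 times before GSTF2, 4 times before GSTF7, 1 time before DOX1, 1 time before BAP1 and 0 times before Prx37, against a median of 2 over all promoters, of which 20.8% hold 4 or more. The TGA core occurred in none of the 5 longer windows and is in 54.1% of all. The window of GSTF2 runs into the gene AT4G02530. Start sites are those of RefSeq, and the deposited lengths differ from that annotation, so the authors' models may start elsewhere. A match is a description of letters and shows no binding.

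For each gene, the listed locus nearest in level, by Euclidean distance of log2 RPKM over the 2 libraries, was found as a description. It was TET8, a tetraspanin gene, for BAP1 (distance 0.04; 84.6 RPKM in WRKY75RNAi and 176 RPKM in Col-0). It was AT1G47395 for DOX1 (distance 0.06, on only 3 and 38 reads), PUP7, a purine permease family gene, for Prx37 (distance 0.15) and EXT3, an extensin gene of the cell wall, for GSTF7 (distance 0.35). For GSTF2 it was LOX2, a jasmonate synthesis gene listed as higher, at the much larger distance of 1.52.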

How the data were processed

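Polyadenylated RNA of leaves was sequenced, 1 library per genotype, per the labels. Bowtie and the TAIR10 build are named per the submitters' processing notes; neither the aligner's version nor the counting tool, strand setting, read length or test was stated there. For each transcript model the authors deposited RPKM values, read counts, p-values with false discovery rates and the log2 ratio of WRKY75RNAi over Col-0, per the file headers, and a further table of 93 ontology terms with p-values. No numeric column was left unmapped (0).

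Library totals are the median over rows of reads divided by RPKM and length. Ratios were recomputed from RPKM and differ from the deposited log2 ratios by at most 7.29e-08. The number of tested models, 31475, is the one at which ranks computed from deposited p-values and false discovery rates were whole (mean distance 0.00194 over 545 rows, against 0.112 at the next best number); the deposited p-values served for nothing else. One model per locus, that with most reads, was kept. Exact intervals (SciPy 1.17.1) were tested on simulated data. Transcripts were compared by BLAST 2.17.0 and coding sequences by global alignment (Biopython 1.88). The reference annotation of TAIR10.1 gave coordinates, names and sequences.

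The members and lists were chosen with earlier results of these data known. Named genes are the 5 genes, WRKY75, up to 6 listed members of each list with the most reads, close relatives and the nearest locus in level. Peroxidases and further glutathione transferases found by words, and neighbours, were named after their values were seen. No test of genotype was made, since each genotype has 1 library. Alternatives tried were pseudocounts, no scaling to library totals, other choices of transcript model, 0.5 of the reads, stricter thresholds and lists found by words.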

Additional observations from a re-analysis of the deposited data

How the results depend on the processing

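No paired analysis was possible because each genotype has 1 library. No ratio of the 5 genes or WRKY75 reversed its sign, but the settings run could hardly have reversed one. A pseudocount cannot change the sign, and the library totals are too close to undo a 2-fold ratio. Of 42 recomputed ratios, 34 stayed within the interval of the reported value and 8 did not. Many of the 34 could not move. With 0.5 of the reads only the interval was recomputed. The other choices of transcript model gave the same ratio, as each of the 5 genes has 1 listed model. Without scaling to library totals, the log2 ratio was -1.23 for GSTF2, -1.18 for GSTF7 and -1.23 for BAP1. A pseudocount of 1 RPKM gave -1.95 for Prx37 and -1.48 for DOX1, and one of 5 RPKM gave -1.32 for Prx37, -0.50 for DOX1 and -1.30 for WRKY75, since it is large beside their levels. The order of DOX1 and Prx37 turned round at 1 and 5 RPKM but not at 0.1 RPKM, where they were -2.98 and -2.21. With 0.5 of the reads the interval of DOX1 widened to -4.36 to -2.67.

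With the threshold on the log2 ratio moved to 1.5 in size, 0 phi transferases, 0 BON and BAP genes and 3 phi and tau transferases together were lower, and 1 tau transferase and 0 glutathione supply and cycle genes were higher. At 2, the lower counts were 0 phi, 0 tau, 0 phi and tau together and 0 BON and BAP, and the higher counts 0 tau, 1 phi and tau together and 0 glutathione supply and cycle. With at least 50 reads over both libraries, 0 phi transferases and 0 scavenging genes were higher. With a pseudocount of 1 RPKM and a 2-fold difference, the higher counts were 0 phi, 1 tau, 1 phi and tau together and 0 scavenging. Words in descriptions gave 9 lower peroxidases in place of 3, as the word list is longer. The depth limits DOX1 most, with 28 reads in WRKY75RNAi.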

Other observations

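Glutaredoxins, small oxidoreductases that use glutathione, were looked at after the values were seen. Of 22 genes with that word in their description, 6 (27.3%) were listed as lower and 1 (4.55%) as higher, beside 3.17% and 4.32% over all models tested, with a median log2 ratio of -1.23. The lower gene with most reads, AT3G28850, had 6.06 RPKM from 335 reads in WRKY75RNAi and 13.8 RPKM from 831 reads in Col-0 (log2 ratio -1.19, interval -1.38 to -1.01). GRXS13 (AT1G03850), a glutaredoxin gene of the plant-specific class, had 2.87 RPKM from 72 reads in WRKY75RNAi and 9.18 RPKM from 250 reads in Col-0 (-1.68, interval -2.08 to -1.29). The lower genes AT5G39865, AT5G03870 and AT3G21460 rested on only 64, 42 and 22 reads over both libraries. The higher gene, AT5G06470, rested on 21 reads in WRKY75RNAi and 6 in Col-0 (1.93, interval 0.57 to 3.53). Their sequences were not compared, so shared reads were not tested.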
